A study of Rattus norvegicus with 9 samples.

Results

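The 10 genes described here are 8 genes known as NRF2 targets, mostly from mouse and human cells (Hmox1, Akr1b8, Srxn1, Txnrd1, Gclc, Gclm, Me1 and Nqo1), the gene of NRF2 itself (Nfe2l2) and the gene of its repressor (Keap1). They were taken by symbol from a table of 17588 genes of rat chondrocytes, and all 10 were found there and passed the filter on low values that left 11732 genes for testing. They were chosen by their FPKM in co-culture against control, since several of them lay below control there, so their values in co-culture against control are given as a description, with no test. The libraries come from wild-type primary rat chondrocytes, 3 in each of 3 groups: co-culture with dermal fibroblasts with IL-1β (the co-culture group), IL-1β in normal culture without fibroblasts (the IL-1β group), and normal culture with no IL-1β (the control group). IL-1β, an inflammatory cytokine, was thus present in the co-culture and the IL-1β groups, and the fibroblasts sat in the upper chamber of a transwell above the chondrocytes. No group had fibroblasts without IL-1β, so the effect of co-culture on unstimulated chondrocytes was not measured. The labels do not give the dose or the times, nor whether replicates were separate animals or cultures, and the p-values thus speak only for the variation among the libraries at hand, part of which could be technical.

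NRF2 is a transcription factor that is made continuously and destroyed continuously, because KEAP1 hands it to a ubiquitin ligase built on CUL3. Oxidants and electrophiles alter KEAP1, NRF2 then accumulates, pairs with a small MAF protein and binds antioxidant response elements (ARE) near genes of glutathione and thioredoxin metabolism, NADPH supply, quinone reduction and haem breakdown. NRF2 is controlled largely through its protein, so the level of its mRNA need not follow its activity, and BACH1 is a repressor that competes for the same elements. In cartilage the system is known for limiting oxidative damage in chondrocytes.

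Levels are FPKM, that is, sequenced fragments per length of transcript and per size of library, and their sums ran from 809839 to 811665 in co-culture, 796262 to 832248 with IL-1β and 771058 to 782435 in control. The absolute depth is unknown. Judged by the smallest values of 15 to 28 scarcely detected genes a library, 1 read was worth 0.95 to 1.07 times what it was in control replicate 1. Only genes with values near those of control replicate 1 were kept for this, so a large difference in depth would not have shown. Of 8 chondrocyte markers all were measured, and their summed level was 443 to 491 FPKM in co-culture, 305 to 321 FPKM with IL-1β and 1553 to 1632 FPKM in control libraries. Summed over 8 skeletal muscle markers the levels were 450 to 506 FPKM in co-culture, 474 to 515 FPKM with IL-1β and 209 to 214 FPKM in control libraries. Of 8 dermal fibroblast markers, 3 (Clec3b, Dpp4 and Entpd1) stayed under 1 FPKM in all libraries, and the sum was 52.7 to 62.4 FPKM in co-culture, 61.7 to 64.1 FPKM with IL-1β and 45.2 to 45.7 FPKM in control. Of 8 macrophage markers, 5 (Ptprc, Itgam, Mrc1, Csf1r and Cd163) stayed under 1 FPKM and the sum was 5.64 to 6.18 FPKM in co-culture, 6.66 to 7.22 FPKM with IL-1β and 5.69 to 6.05 FPKM in control, while all 6 endothelial and all 3 measured erythroid markers stayed under 1 FPKM, with highest values of 0.37 and 0.22. No marker in these lists was at 0 in all 9 libraries. With IL-1β over control all 8 chondrocyte markers fell and all 8 muscle markers rose, and with co-culture over IL-1β 6 chondrocyte markers rose and 2 muscle markers fell (limma adjusted p under 0.05). Of 3 tested dermal fibroblast markers 1 rose and 1 fell with IL-1β, and 0 were called with co-culture. Of 3 tested macrophage markers 1 rose and 1 fell with IL-1β, and 1 fell with co-culture. Among all tested genes 26.5% rose and 20.2% fell with IL-1β, and 11.9% rose and 10.1% fell with co-culture. The part of these cell types in the results was not tested. In such bulk samples fewer cells of a type and less RNA per cell cannot be told apart.

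The promoter windows of the members show where sequences that NRF2 is known to bind lie near these genes. RefSeq windows (build GRCr8) from 250 bases before to 50 after the gene start matched 9 of the 10 genes, all but Hmox1. They were searched on both strands for the ARE core TGACNNNGC and for TGANTCA, the motif of AP-1 factors, and a stretch can hold both. The ARE core was found in 4 of the 9 genes, Gclm, Me1, Txnrd1 and Nfe2l2, and in 12.1% of all 33469 windows. The AP-1 motif was found in 2, Me1 and Srxn1, and in 7.33% of all windows. The 4 windows with a match before the start are shown to place the motifs, with the matches in capitals. No match was found in the windows of Nqo1, Gclc, Akr1b8 and Keap1. The windows are short and elements farther from the start were not searched, so a missing match does not mean that a gene lacks the motif.
Gclm: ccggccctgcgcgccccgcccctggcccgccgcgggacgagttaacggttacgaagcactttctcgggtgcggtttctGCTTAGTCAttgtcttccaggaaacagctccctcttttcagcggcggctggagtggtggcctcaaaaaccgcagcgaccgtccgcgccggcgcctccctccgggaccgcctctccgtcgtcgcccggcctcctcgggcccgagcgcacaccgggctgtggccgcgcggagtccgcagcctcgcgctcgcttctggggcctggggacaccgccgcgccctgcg
Txnrd1: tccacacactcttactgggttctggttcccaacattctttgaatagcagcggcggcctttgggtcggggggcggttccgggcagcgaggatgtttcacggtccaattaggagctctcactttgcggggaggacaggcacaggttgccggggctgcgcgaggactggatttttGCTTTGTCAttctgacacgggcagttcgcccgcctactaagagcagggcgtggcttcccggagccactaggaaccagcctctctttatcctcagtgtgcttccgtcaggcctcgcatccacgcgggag
Me1: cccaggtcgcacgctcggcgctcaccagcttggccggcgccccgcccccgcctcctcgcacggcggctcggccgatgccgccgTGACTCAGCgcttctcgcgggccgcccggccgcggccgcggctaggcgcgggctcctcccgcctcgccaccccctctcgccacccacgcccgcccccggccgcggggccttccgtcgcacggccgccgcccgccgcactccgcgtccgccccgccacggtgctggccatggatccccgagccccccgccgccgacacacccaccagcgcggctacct
Srxn1: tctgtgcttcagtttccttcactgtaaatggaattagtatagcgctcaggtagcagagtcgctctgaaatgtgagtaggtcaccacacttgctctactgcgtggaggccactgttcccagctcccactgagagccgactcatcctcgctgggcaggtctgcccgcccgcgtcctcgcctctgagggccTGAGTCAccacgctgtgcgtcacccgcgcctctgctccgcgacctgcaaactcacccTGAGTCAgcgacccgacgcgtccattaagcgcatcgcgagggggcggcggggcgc

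The Gclm window is chr2:213031885-213032184 on the plus strand, and its ARE core, TGACTAAGC on the opposite strand of the gene, begins 172 bases before the start (position -172). The Txnrd1 window is chr7:22755855-22756154 on the minus strand, with TGACAAAGC on the opposite strand of the gene at -78, whereas the window at another RefSeq start of Txnrd1 held no match. The Me1 window is chr8:96540195-96540494 on the minus strand, and its TGACTCAGC at -167 holds both motifs at once. The Srxn1 window is chr3:161064562-161064861 on the plus strand and has the AP-1 motif TGAGTCA at -62 and at -5. The match at -5 is followed by GC. That stretch, TGAGTCAGC, departs from the ARE core only by a G in place of the C, so the search for the core did not count it. The Nfe2l2 match, TGACGCCGC, lies at 39 after the start. A match is a stretch of letters, not a site shown to be bound.

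**Figure D1:**
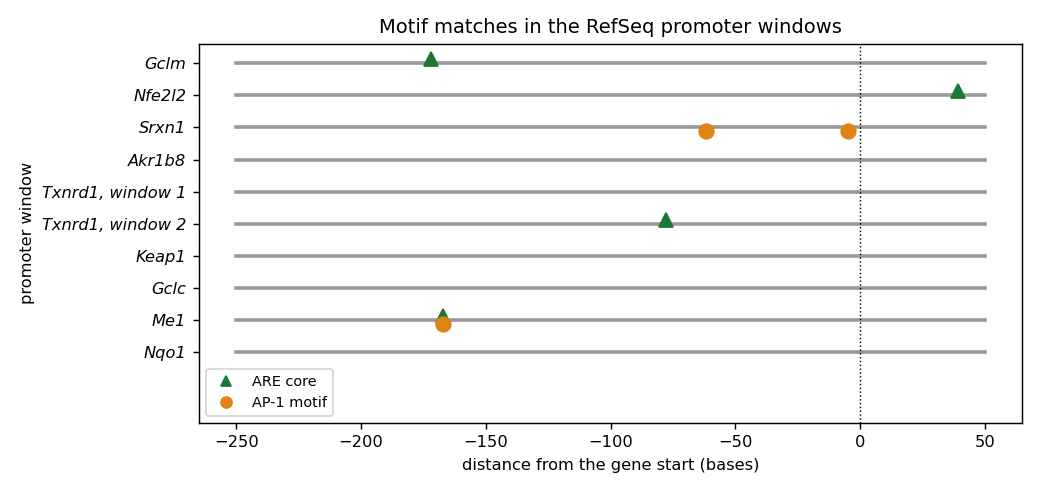
Motif matches in the promoter windows of 9 genes (2 windows for Txnrd1), by distance from the gene start in bases; triangles mark the first base of an ARE core and circles that of an AP-1 motif. The matches of Gclm, Me1, Txnrd1 and Srxn1 begin before the start, at -172, -167, -78, -62 and -5. The Srxn1 match that begins at -5 runs across the start. The Nfe2l2 match begins at 39 after the start.

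With IL-1β alone most of these genes were higher than in control, and with co-culture all 8 targets were lower than with IL-1β alone. In limma across all tested genes, 8 of the 10 genes were higher and 1 (Nqo1) was lower with IL-1β than in control at an adjusted p under 0.05 (Benjamini-Hochberg). Among all tested genes 26.5% were called higher and 20.2% lower in that comparison. With co-culture against IL-1β alone, 8 of the 10 were lower and 0 higher, and the 2 not called were Nfe2l2 and Keap1. Among all tested genes 10.1% were called lower and 11.9% higher there. Of the 10, 6 were called both higher with IL-1β and lower with co-culture, as were 9.13% of all tested genes. The median log2 change of the 10 genes was 0.17 with IL-1β over control and -0.34 with co-culture over IL-1β, and over all tested genes it was 0.02 in both. The control libraries that enter the first comparison and the co-culture libraries that enter the second are those by which the genes were chosen, and the comparisons share the IL-1β libraries, so these counts are not independent of the choice or of each other. When all libraries were brought to the same FPKM total, 5 of the 10 in place of 8 were called higher with IL-1β, and among all genes 2249 were called higher and 3188 lower in place of 3109 and 2370.

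**Figure D2:**
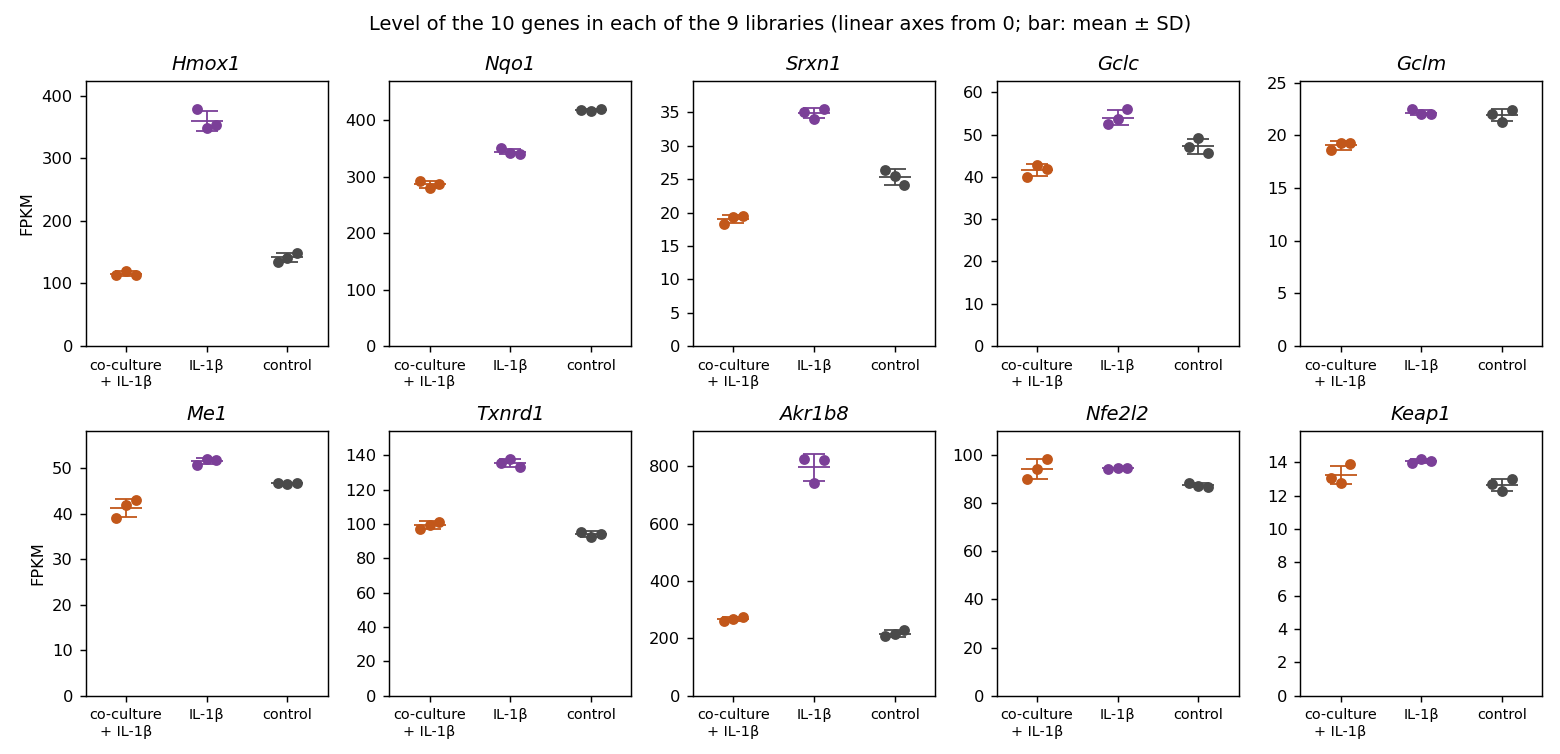
FPKM of each of the 10 genes (1 panel a gene, linear axis from 0) in the 3 co-culture, 3 IL-1β and 3 control libraries; points are libraries and bars mean ± SD. Hmox1 and Akr1b8 stand out with IL-1β, at 348 to 378 and 741 to 825 FPKM, and Nqo1 is lowest in co-culture, at 279.8 to 292 FPKM.

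Hmox1 encodes haem oxygenase 1, which breaks haem into biliverdin, carbon monoxide and iron. Its level was 113.5, 120.2 and 113.1 FPKM in the co-culture libraries, 378, 348 and 353 FPKM in the IL-1β libraries and 135, 141 and 149 FPKM in the control libraries. The 3 groups did not overlap, with IL-1β highest and co-culture lowest. The mean was 2.54-fold higher with IL-1β than in control (log2 change 1.34 ± 0.044 SE, n = 3 each, limma adjusted p = 5.03e-09). Co-culture was 3.11-fold lower than IL-1β alone (log2 change -1.63 ± 0.044, limma adjusted p = 7.57e-08), which put its mean, 116 ± 3.96 FPKM, below the 142 ± 6.79 FPKM of control.

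Akr1b8 encodes an aldo-keto reductase, an NADPH-dependent enzyme that reduces aldehydes. It stood at 262, 266 and 276 FPKM in co-culture, 825, 741 and 823 FPKM with IL-1β and 207, 216 and 228 FPKM in control libraries. The groups did not overlap, and here co-culture stayed above control. The IL-1β mean was 3.67-fold that of control (log2 change 1.87 ± 0.049, limma adjusted p = 8.71e-10), and co-culture was 2.97-fold lower than IL-1β (log2 change -1.57 ± 0.049, limma adjusted p = 9.46e-08). The aldo-keto reductases are a family of similar genes, so the authors' counting could have split reads between copies.

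Srxn1 encodes sulfiredoxin, which restores peroxiredoxins inactivated by peroxide. The levels were 18.3, 19.3 and 19.5 FPKM in co-culture, 35.1, 34.0 and 35.5 FPKM with IL-1β and 26.4, 25.5 and 24.1 FPKM in control, with no overlap between groups and co-culture lowest. It was 1.38-fold higher with IL-1β than in control (log2 change 0.45 ± 0.042, limma adjusted p = 1.33e-05). Co-culture was 1.83-fold lower than IL-1β (log2 change -0.84 ± 0.042, limma adjusted p = 1.19e-06). Its promoter window carried the AP-1 motifs shown above.

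Txnrd1 encodes the cytosolic thioredoxin reductase, which uses NADPH to keep thioredoxin reduced. It was at 96.9, 99.5 and 101.4 FPKM in co-culture, 135, 138 and 133 FPKM with IL-1β and 95.6, 92.5 and 94.3 FPKM in control. The IL-1β libraries stood apart from both other groups, which lay close together. The IL-1β mean was 1.44-fold that of control (log2 change 0.52 ± 0.028, limma adjusted p = 1.87e-07) and co-culture was 1.37-fold lower than IL-1β (log2 change -0.44 ± 0.028, limma adjusted p = 3.84e-06).

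Gclc and Gclm encode the catalytic and the modifier subunit of glutamate-cysteine ligase, the rate-limiting enzyme of glutathione synthesis. Gclc was at 40.1, 42.9 and 41.8 FPKM in co-culture, 52.5, 53.6 and 55.9 FPKM with IL-1β and 46.95, 49.2 and 45.6 FPKM in control, without overlap. Gclm was at 18.6, 19.3 and 19.3 FPKM in co-culture, 22.5, 22.0 and 22.0 FPKM with IL-1β and 22.0, 21.3 and 22.4 FPKM in control, where the last pair of groups overlapped. Both subunits were lowest in co-culture. With IL-1β Gclc rose 1.14-fold (log2 change 0.19 ± 0.040, limma adjusted p = 0.00326), and Gclm differed from control by 0.02 ± 0.035 log2 (limma adjusted p = 0.728). With co-culture Gclc was 1.30-fold lower than with IL-1β (log2 change -0.37 ± 0.040, limma adjusted p = 0.000155) and Gclm 1.16-fold lower (log2 change -0.21 ± 0.035, limma adjusted p = 0.00229). Of these subunit genes only Gclm carried the ARE core in its window.

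Me1 encodes cytosolic malic enzyme, a source of NADPH. It was at 39.1, 41.9 and 43.0 FPKM in co-culture, 50.8, 52.0 and 51.8 FPKM with IL-1β and 46.8, 46.6 and 46.7 FPKM in control, with no overlap and co-culture lowest. The rise with IL-1β was 1.10-fold (log2 change 0.14 ± 0.036, limma adjusted p = 0.00963) and was lost once all libraries were brought to the same FPKM total (0.08 log2, adjusted p = 0.164, the highest of a range from 0.00187 over 18 alternatives). Co-culture was 1.25-fold lower than IL-1β (log2 change -0.31 ± 0.036, limma adjusted p = 0.000228).

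Nqo1, which encodes a quinone reductase and is often used as a readout of NRF2 activity, went a different way. It was at 292, 279.8 and 288 FPKM in co-culture, 350.2, 343 and 341 FPKM with IL-1β and 418, 417 and 419 FPKM in control. The control libraries were highest, the IL-1β libraries lay below them and the co-culture libraries below those, with no overlap at either step. IL-1β was 1.21-fold lower than control (log2 change -0.28 ± 0.024, limma adjusted p = 8.07e-06) and co-culture 1.20-fold lower than IL-1β (log2 change -0.27 ± 0.024, limma adjusted p = 5.33e-05). It was the most abundant of the 10 in control libraries, ranked 283 of 11732 tested genes by mean FPKM. Only 15 tested genes (0.128%) were called lower at both steps. A gene lower at both steps also lies below control in co-culture, the pattern by which the members were chosen. The small share is thus no separate evidence about Nqo1. Nqo1 and Ptgr1, a reductase gene of the wider pathway, are among the 6 of these 15 that were lower at both steps in all 19 settings run. The 6 genes, named here after their values were seen, also include Rassf4, Gadd45a, Scd2 and Col18a1.

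The regulators moved little. Nfe2l2 was at 89.9, 94.2 and 98.2 FPKM in co-culture, 94.0, 94.7 and 94.4 FPKM with IL-1β and 88.4, 87.0 and 86.8 FPKM in control. Keap1 was at 13.1, 12.8 and 13.9 FPKM in co-culture, 13.9, 14.2 and 14.1 FPKM with IL-1β and 12.7, 12.3 and 13.0 FPKM in control. Nfe2l2 overlapped between co-culture and IL-1β and Keap1 between co-culture and control. With IL-1β Nfe2l2 was higher by 0.11 ± 0.033 log2 (limma adjusted p = 0.0203) and Keap1 by 0.14 ± 0.042 (limma adjusted p = 0.0184). The Nfe2l2 call ended without control replicate 2, control replicate 3, IL-1β replicate 2 or IL-1β replicate 3 (adjusted p = 0.0559, 0.0595, 0.0547 and 0.0525), and the Keap1 call without control replicate 2 or IL-1β replicate 2 (adjusted p = 0.0657 and 0.0542). Both also ended when libraries were rescaled to a common sum (adjusted p = 0.362 for Nfe2l2 and 0.193 for Keap1, the highest of ranges from 0.00616 and 0.0146 over 18 alternatives). Quantile normalization ended both as well (adjusted p = 0.161 for Nfe2l2 and 0.0991 for Keap1), and median-of-ratios scaling that of Nfe2l2 (adjusted p = 0.0524). Between co-culture and IL-1β the difference was -0.005 ± 0.033 log2 for Nfe2l2 (limma adjusted p = 0.940) and -0.08 ± 0.042 for Keap1 (limma adjusted p = 0.199).

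**Figure D3:**
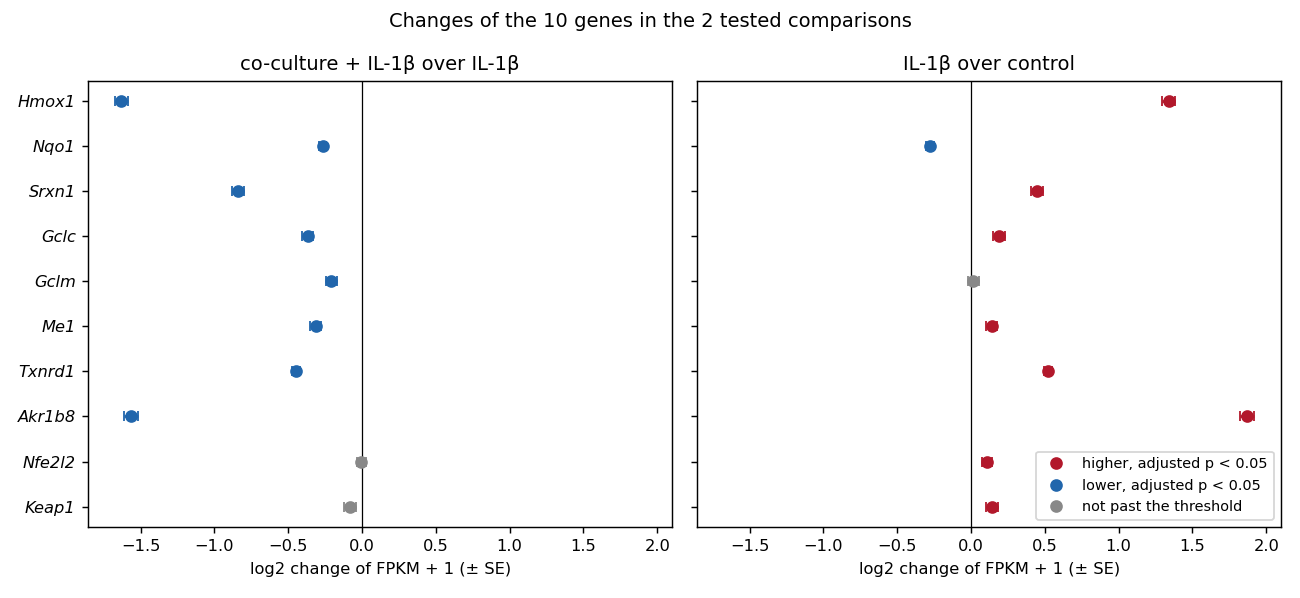
Log2 change of FPKM + 1 with its standard error for each of the 10 genes, in co-culture over IL-1β (left) and IL-1β over control (right); colour gives the limma call. Hmox1 and Akr1b8 change most in both, at -1.63 and -1.57 on the left and 1.34 and 1.87 on the right, while Nqo1 lies left of 0 in both.

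Set against control, the pattern by which the genes were chosen, co-culture libraries lay below all control libraries for 6 genes (Hmox1, Nqo1, Srxn1, Gclc, Gclm and Me1) and above all of them for 3 (Txnrd1, Akr1b8 and Nfe2l2), with Keap1 overlapping. Among all tested genes 17.0% lay below and 29.6% above without overlap. The change of the mean from control was -31.4% for Nqo1, -24.8% for Srxn1, -18.4% for Hmox1, -12.95% for Gclm, -11.95% for Gclc and -11.5% for Me1. Measured between the highest co-culture and the lowest control library, relative to the control library, the gap was narrowest for Gclc, with 42.9 FPKM in its highest co-culture library and 45.6 FPKM in its lowest control library. Akr1b8 was 23.5% above control, Nfe2l2 7.63%, Txnrd1 5.46% and Keap1 4.72%. After rescaling libraries to a common sum the same 6 genes lay below control without overlap, only Akr1b8 lay above, and Txnrd1 (95.5 to 99.9 FPKM in co-culture, 94.5 to 98.8 in control), Nfe2l2 and Keap1 overlapped. Among all tested genes 25.2% then lay below control and 19.1% above without overlap.

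Among other genes of the NRF2 system, 23 of 60 tested were called higher with IL-1β and lower with co-culture. Of 67 further pathway genes in the table, 60 were tested and 7 (Gpx2, Gsta3, Ggt1, Abcc2, Bach2, Nfe2l3 and Nfe2) stayed below the filter, at 0.38 FPKM or less in every library. With IL-1β against control, 33 of the 60 rose and 9 fell, with a median log2 change of 0.23. With co-culture against IL-1β, 28 fell and 5 rose, with a median of -0.21. The 23 genes called higher and then lower stand beside 9.13% of all tested genes, while 10 of the 60 were higher with IL-1β and not called with co-culture, 4 (Gss, Chac1, Txnip and Pgam5) were lower and then higher, and 13 were called in neither comparison. Osgin1, counted among the 33, the 28 and the 23, passed the filter through the IL-1β libraries alone. This list is a choice of genes made with results of these data known. Its counts, and those of its subgroups below, stand beside the shares among all tested genes. These were 26.5% higher and 20.2% lower with IL-1β, and 11.9% higher and 10.1% lower with co-culture. The subgroups are small, and some counts, such as 2 of 12 regulators lower with IL-1β, are near these shares.

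**Figure D4:**
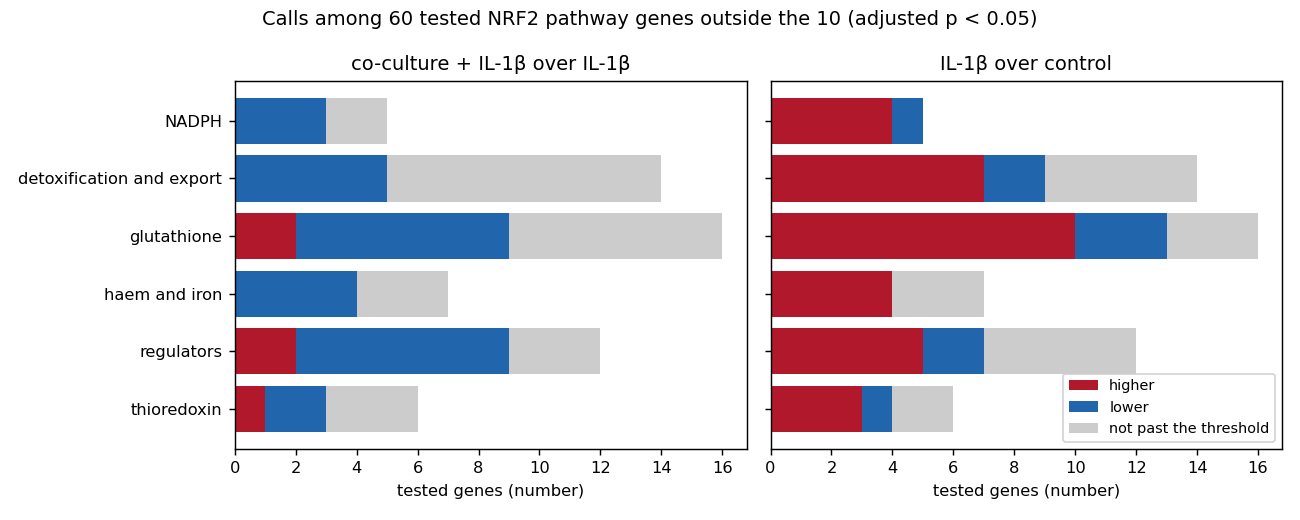
Number of tested pathway genes outside the 10 called higher, lower or not past the threshold in limma, by subgroup, in co-culture over IL-1β (left) and IL-1β over control (right). Lower calls prevail on the left (28 against 5 higher) and higher calls on the right (33 against 9 lower).

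Of 7 haem and iron genes tested, 4 (Fth1, Slc48a1, Blvrb and Fech) rose and 0 fell with IL-1β, and 4 (Fth1, Slc48a1, Blvrb and Ftl1) fell and 0 rose with co-culture. Fth1, the ferritin heavy chain that oxidises and stores iron, was at 2355, 2104 and 2249 FPKM in co-culture, 4979, 4712 and 4829 FPKM with IL-1β and 1175, 1229 and 1234 FPKM in control. Its groups did not overlap, and its log2 change was 2.00 with IL-1β (limma adjusted p = 2.18e-10) and -1.11 with co-culture over IL-1β (limma adjusted p = 2.80e-07). Slc48a1, a haem transporter, averaged 48.9 ± 1.98 FPKM in co-culture, 104 ± 4.03 FPKM with IL-1β and 54.7 ± 1.40 FPKM in control, the order seen for Hmox1. Its log2 change was 0.92 with IL-1β (limma adjusted p = 3.78e-08) and -1.08 with co-culture over IL-1β (limma adjusted p = 2.31e-07). Ftl1, the ferritin light chain, averaged 3185 ± 118 FPKM in co-culture, 3868 ± 66.6 FPKM with IL-1β and 3701 ± 30.8 FPKM in control. It was not called with IL-1β (log2 change 0.06, limma adjusted p = 0.126) and fell with co-culture (-0.28, limma adjusted p = 0.000182). Blvrb, a biliverdin reductase, averaged 53.2 ± 1.22 FPKM in co-culture, 66.5 ± 2.98 with IL-1β and 47.9 ± 4.05 in control. Fech, the ferrochelatase that puts iron into haem, averaged 8.50 ± 0.985 FPKM in co-culture, 10.05 ± 0.623 with IL-1β and 8.53 ± 0.371 in control. Its call with IL-1β (log2 change 0.21, limma adjusted p = 0.0471) ended in 12 of 18 alternatives, among them those without control replicate 1, 2 or 3, IL-1β replicate 2 or 3 or co-culture replicate 1 (adjusted p 0.0136 to 0.152 over the 18).

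Among 16 tested glutathione genes 10 rose and 3 (Slc3a2, Gss and Chac1) fell with IL-1β, and with co-culture over IL-1β 7 fell and 2 (Gss and Chac1) rose. Mgst1, a microsomal glutathione transferase, was at 24.4, 19.0 and 27.2 FPKM in co-culture, 59.7, 57.0 and 59.8 FPKM with IL-1β and 4.71, 5.47 and 5.26 FPKM in control. It was 11.4-fold higher with IL-1β (log2 change 3.29, limma adjusted p = 4.44e-09) and 2.50-fold lower with co-culture than with IL-1β (log2 change -1.30, limma adjusted p = 2.44e-05), so that co-culture stayed well above control. Glrx, a glutaredoxin, averaged 26.3 ± 1.40 FPKM in co-culture, 36.95 ± 0.932 with IL-1β and 16.8 ± 0.995 in control, and Gsr, glutathione reductase, averaged 44.98 ± 0.150 FPKM in co-culture, 60.8 ± 2.38 with IL-1β and 37.1 ± 2.02 in control. Both rose with IL-1β (log2 changes 1.09 and 0.70, limma adjusted p = 6.67e-08 and 5.40e-07) and fell with co-culture (-0.47 and -0.43, adjusted p = 0.000143 and 9.55e-05). Chac1, which degrades glutathione, ran the other way, at 16.7 ± 0.670 FPKM in co-culture, 12.3 ± 0.950 with IL-1β and 25.6 ± 2.13 in control. The glutathione transferases of the alpha and mu classes are multigene families and their levels are uncertain; Gsta1 was listed at 0 in 1 co-culture and 1 control library. Gstm2, one of the 7 that fell with co-culture (log2 change -0.33, limma adjusted p = 0.0221), missed the threshold without IL-1β replicate 1 or 3 or co-culture replicate 2 or 3 (adjusted p = 0.0754, 0.0551, 0.0656 and 0.0507, in a range from 0.0095 over 18 alternatives).

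Most genes of NADPH supply were highest with IL-1β. Of 5 tested, 4 rose with IL-1β and 1 (Idh1) fell, and with co-culture 3 fell and 0 rose. Among those that rose was Taldo1, a transaldolase, which averaged 144 ± 3.84 FPKM in co-culture, 150.3 ± 2.77 with IL-1β and 127 ± 3.65 in control. Pgd, which encodes phosphogluconate dehydrogenase, averaged 239.6 ± 7.26 FPKM in co-culture, 319.9 ± 11.2 with IL-1β and 233 ± 5.65 in control. Tkt, a transketolase, averaged 189 ± 6.15 FPKM in co-culture, 235 ± 3.42 with IL-1β and 170.4 ± 2.24 in control. Pgd and Tkt rose with IL-1β (log2 change 0.45 for Pgd and 0.46 for Tkt) and fell with co-culture over IL-1β (-0.42 for Pgd and -0.32 for Tkt).

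Of 6 thioredoxin system genes 3 (Prdx1, Prdx6 and Txn1) rose and 1 (Txnip) fell with IL-1β, and 2 (Prdx1 and Prdx6) fell and 1 (Txnip) rose with co-culture. Txn1, thioredoxin itself, averaged 1344 ± 47.1 FPKM in co-culture, 1431 ± 53.9 with IL-1β and 1254 ± 27.6 in control, and its call (limma adjusted p = 0.00176) ended with quantile normalization (adjusted p = 0.122, the highest of a range from 0.00142 over 18 alternatives). Prdx1, a peroxiredoxin that sulfiredoxin repairs, averaged 1136 ± 12.9 FPKM in co-culture, 1269 ± 40.5 with IL-1β and 920.0 ± 8.92 in control (log2 change 0.46 with IL-1β and -0.16 with co-culture over IL-1β, limma adjusted p = 4.64e-07 and 0.00285). Prdx6, another peroxiredoxin, averaged 192 ± 1.08 FPKM in co-culture, 223 ± 4.28 with IL-1β and 180.3 ± 9.86 in control (0.31 log2 with IL-1β and -0.21 with co-culture over IL-1β). Txnip, an inhibitor of thioredoxin, averaged 65.9 ± 1.85 FPKM in co-culture, 43.9 ± 0.845 with IL-1β and 83.3 ± 1.33 in control (-0.91 log2 with IL-1β and 0.57 with co-culture over IL-1β, limma adjusted p = 5.72e-09 and 1.63e-06).

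Of 14 detoxification and export genes 7 rose and 2 (Cbr3 and Ptgr1) fell with IL-1β, and 5 (Pir, Ugdh, Ptgr1, Aox1 and Osgin1) fell and 0 rose with co-culture. The Cbr3 call ended without control replicate 3, IL-1β replicate 2 or IL-1β replicate 3 (adjusted p = 0.0999, 0.083 and 0.0873, in a range from 0.00682 over 18 alternatives). Abcc3, an exporter and one of the 7 that rose (log2 change 0.27, limma adjusted p = 0.0443), missed the threshold in 12 of 17 alternatives, among them those without control replicate 2 or 3, IL-1β replicate 1, 2 or 3 or co-culture replicate 3 (adjusted p 0.0168 to 0.151 over the 17). Aox1, an aldehyde oxidase, averaged 2.70 ± 0.171 FPKM in co-culture, 3.57 ± 0.162 with IL-1β and 3.69 ± 0.387 in control. Its fall with co-culture (limma adjusted p = 0.0172) was not called without IL-1β replicate 2 or 3 or co-culture replicate 3 (adjusted p = 0.0555, 0.0574 and 0.0533, in a range from 0.0106 over 17 alternatives). Osgin1, a gene induced by oxidative stress, was at 0.68, 0.70 and 0.65 FPKM in co-culture, 1.21, 1.66 and 1.51 FPKM with IL-1β and 0.97, 0.83 and 0.82 FPKM in control, and so passed the filter through the IL-1β libraries alone. Being highest with IL-1β was thus built into its inclusion, and its calls, though counted, carry no weight. Pir, which encodes pirin, averaged 21.6 ± 1.42 FPKM in co-culture, 35.9 ± 1.36 with IL-1β and 16.7 ± 0.845 in control (log2 change 1.06 with IL-1β and -0.71 with co-culture over IL-1β, limma adjusted p = 1.53e-07 and 1.63e-05). Ugdh, which makes UDP-glucuronate for conjugation and for glycosaminoglycan chains, averaged 229.7 ± 8.83 FPKM in co-culture, 280.0 ± 3.81 with IL-1β and 170.2 ± 2.18 in control (0.71 log2 with IL-1β and -0.28 with co-culture over IL-1β). Ptgr1, a prostaglandin and alkenal reductase, was at 249, 259.8 and 258 FPKM in co-culture, 306, 292 and 291 FPKM with IL-1β and 368, 392 and 390 FPKM in control. Like Nqo1 it was lower at each step, with a log2 change of -0.37 with IL-1β (limma adjusted p = 1.11e-05) and -0.21 with co-culture over IL-1β (limma adjusted p = 0.00156).

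Of 12 tested regulators, 5 (Bach1, Mafk, Maff, Mafg and Dpp3) rose and 2 (Gsk3b and Pgam5) fell with IL-1β, and 7 fell and 2 (Cul3 and Pgam5) rose with co-culture. The repressor gene Bach1 was at 7.55, 8.86 and 8.46 FPKM in co-culture, 11.7, 11.6 and 12.6 FPKM with IL-1β and 6.63, 5.89 and 5.87 FPKM in control. It rose with IL-1β (log2 change 0.87, limma adjusted p = 3.16e-06) and fell with co-culture (-0.49, limma adjusted p = 0.000718). Mafk, a small MAF partner of both NRF2 and BACH1, averaged 15.2 ± 0.124 FPKM in co-culture, 18.5 ± 0.993 with IL-1β and 12.5 ± 0.328 in control (0.53 log2 with IL-1β and -0.27 with co-culture over IL-1β). Maff and Mafg, also small MAF genes, and Dpp3, a peptidase that binds KEAP1, rose with IL-1β by 0.77, 0.34 and 0.30 log2 and fell with co-culture (-0.42, -0.42 and -0.14). Sqstm1, the autophagy receptor p62 that sequesters KEAP1, averaged 118 ± 1.39 FPKM in co-culture, 166 ± 6.86 with IL-1β and 164 ± 3.47 in control. It did not pass the test with IL-1β (log2 change 0.01, limma adjusted p = 0.808) and fell with co-culture (-0.49, limma adjusted p = 6.52e-06). Cul3, the ligase scaffold, averaged 47.0 ± 1.36 FPKM in co-culture, 43.5 ± 1.15 with IL-1β and 45.99 ± 0.042 in control. Its difference of 0.11 log2 between co-culture and IL-1β (limma adjusted p = 0.0341) missed the threshold in 11 of 18 alternatives, among them those without control replicate 1 or 3, IL-1β replicate 1 or 3 or co-culture replicate 2 or 3 (adjusted p 0.0308 to 0.11 over the 18). Btrc, which encodes a ubiquitin ligase receptor for NRF2, averaged 12.1 ± 0.340 FPKM in co-culture, 13.7 ± 0.852 with IL-1β and 13.1 ± 0.133 in control. Its fall with co-culture (log2 change -0.16, limma adjusted p = 0.0352) missed the threshold in 10 of 18 alternatives, among them those without control replicate 1 or 3, IL-1β replicate 2 or 3 or co-culture replicate 2 or 3 (adjusted p 0.0197 to 0.116 over the 18).

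**Figure D5:**
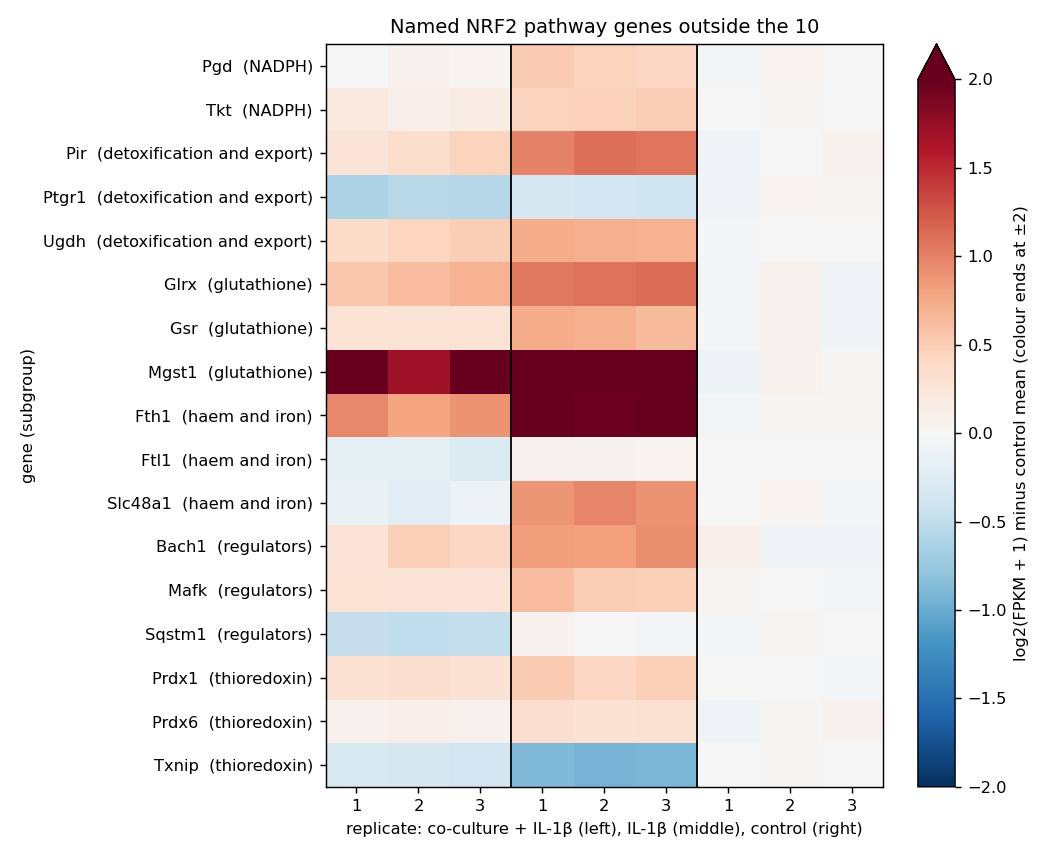
Log2(FPKM + 1) of the named pathway genes in each library, less the gene's control mean, with co-culture libraries at the left, IL-1β in the middle and control at the right; colours end at ±2. Fth1 and Mgst1 are the darkest in the IL-1β libraries, with log2 changes of 2.00 and 3.29 over control, and Ptgr1 and Txnip are lower than control in both groups given IL-1β.

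Genes whose levels ran most like those of Nqo1 and Hmox1 were sought among the 8236 other tested genes that averaged 5 FPKM or more, by Pearson's r of log2(FPKM + 1) over the 9 libraries. As the libraries fall into 3 groups, r mostly follows the group means and is given as a description. The nearest to Nqo1 were Rassf4 (r = 0.990, Spearman's rho = 0.967), Gadd45a (0.981 and 0.950), Scd2 (0.980 and 0.900), Ptgr1 (0.977 and 0.883) and Col18a1 (0.973 and 0.917). Rassf4 averaged 5.41 ± 0.464 FPKM in co-culture, 7.37 ± 0.518 with IL-1β and 10.02 ± 0.127 in control, a stepwise order like that of Nqo1. Gadd45a, a growth arrest and DNA damage gene, averaged 51.2 ± 2.36 FPKM in co-culture, 62.8 ± 0.273 with IL-1β and 71.6 ± 2.16 in control. Nearest to Hmox1 were Ddit4l (r = 0.995, rho = 0.983), Fchsd2 (0.992 and 0.870), the haem transporter gene Slc48a1 (0.989 and 0.817), Cdkn1a (0.988 and 0.967) and Arrdc3 (0.983 and 0.683). Cdkn1a, which encodes the cell-cycle inhibitor p21, averaged 119.9 ± 3.41 FPKM in co-culture, 196 ± 5.07 with IL-1β and 139.8 ± 1.97 in control. By Spearman's rho all 5 named for Nqo1 and 3 of the 5 named for Hmox1 were among the first 50.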

How the data were processed

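RNA of rat primary chondrocytes was measured by poly(A) RNA sequencing, per the labels' protocols. Per the file headers, the authors deposited FPKM for 17588 genes and 9 libraries, with 2 decimals. The aligner, counter, annotation and strand setting were not given in the sources used here. GRCm38, a mouse build, stands in the submitters' processing notes, but 93.2% of the gene IDs were found in a rat GRCr8 table, so the files' coordinates were not used; promoter windows are RefSeq's on GRCr8.

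Genes at 1 FPKM or more in at least 3 libraries (11732) were fitted on log2(FPKM + 1) with limma 3.58.1 (R 4.3.3; mean-variance trend, two-sided, all 9 libraries, no rescaling) with Benjamini-Hochberg adjustment over all of them. Log2 changes are on this scale, which understates changes of low genes; folds are ratios of mean FPKM. The groups come from the sample titles. The members, the pathway and marker lists and the tests were chosen with earlier results of these data known. Of the pathway list, the 3 genes of each subgroup with the smallest p in either tested comparison are named, except 1 gene that is counted but not reported here, with those that account for a count of 5 or fewer; the 5 genes most like Nqo1 and Hmox1 are named; others were named after their values were seen. One listed gene, Cbr1, and the marker Alas2 were not matched. On simulated data among 11732 genes, 42% of genes changed by 0.25 log2 and 88% of those changed by 0.5 log2 were recovered for IL-1β over control, and 50% and 84% for co-culture over IL-1β, with 7.02% and 6.78% of calls on unchanged genes. Only 200 genes a comparison were changed there, far fewer than were called in the data, so recovery in the data can differ. Figures were drawn with matplotlib 3.10.9. The alternatives were another pseudocount, 2 filters, 3 scalings, no trend, a fit of only the 6 libraries compared, a replicate block and leaving out each library.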

Additional observations from a re-analysis of the deposited data

How the results depend on the processing

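The calls of co-culture over IL-1β held for all 8 targets in each of the 9 alternatives that keep every library and in each of the 9 that leave 1 out: 8 genes were called lower and 0 higher throughout. For IL-1β over control the count of members called higher, 8, was 5 with libraries rescaled to a common sum, 6 with quantile normalization and 7 with median-of-ratios scaling, and 6 to 8 when 1 library was left out; the calls lost were among Me1, Nfe2l2 and Keap1, and Nqo1 was called lower in every case. Gclm, which was not called with IL-1β, changed sign with a common sum (-0.0466 log2), quantile normalization (-0.0431) and median-of-ratios scaling (-0.0101), and ran from -0.00301 (without control replicate 2) to 0.0327 when 1 library was left out. Nfe2l2 in co-culture over IL-1β ran from -0.0357 to 0.0271 (without co-culture replicate 1). The cause was not tested. The split of calls over the whole table for IL-1β over control, 3109 higher and 2370 lower, was 2249 and 3188 with a common sum and 2312 and 3325 with quantile normalization, and the median log2 change of all genes there moved between -0.04 and 0.03 over these settings. Pathway genes numbered 30 to 33 higher with IL-1β under the 3 scalings and the main fit. With the replicate block the members' calls were 8 higher and 1 lower with IL-1β and 8 lower with co-culture, as without it, while 4 pathway calls ended (Fech 0.0719 and Abcc3 0.079 with IL-1β, Cul3 0.0626 and Btrc 0.0621 with co-culture) and 1 was gained (Abcc4 lower with IL-1β, 0.0499); libraries of 1 number did not deviate together (r -0.09 to 0.09), so the numbers were not taken as pairs. With an A required after the ARE core, 2 of the 9 genes with a promoter window held it in place of 4. That motif is stricter by construction and was found in 3% of all windows. Without counts, the depth and the counting error behind each value are unknown.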

Other observations

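Ratios within a library set pairs of related genes side by side, as values with no test (3 libraries against 3 cannot reach an exact permutation p under 0.05). The ratio of Gclc to Gclm FPKM was 2.16, 2.22 and 2.17 in co-culture, 2.34, 2.44 and 2.54 with IL-1β and 2.14, 2.31 and 2.04 in control, so it was highest in the IL-1β libraries and overlapped between co-culture and control. The ratio of ferritin heavy to light chain, Fth1 to Ftl1, was 0.718, 0.653 and 0.737 in co-culture, 1.27, 1.21 and 1.27 with IL-1β and 0.320, 0.333 and 0.330 in control, with no overlap. The ratio of Nfe2l2 to Keap1 was 6.88, 7.38 and 7.09 in co-culture, 6.75, 6.68 and 6.71 with IL-1β and 6.98, 7.10 and 6.69 in control. It was higher in every co-culture library than in the IL-1β libraries, and control overlapped both. The summed FPKM of the 8 targets ran from 880.1 to 902 in co-culture, 1731 to 1850 with IL-1β and 997 to 1029 in control. This sum is weighted to abundant genes. Akr1b8 averaged 796 FPKM with IL-1β and 217 in control, and Hmox1 360 and 142. In co-culture Nqo1 averaged 287 FPKM against 418 in control, Hmox1 116 against 142 and Akr1b8 268 against 217. The lower sum in co-culture than in control thus leans on Nqo1, while Akr1b8 went the other way. The median log2 change of the 8 targets from the control mean was 0.297 to 0.355 in IL-1β libraries and -0.241 to -0.162 in co-culture libraries. Over all tested genes the median log2 change in the fit was 0.02 with IL-1β over control and 0.04 with co-culture over control. The genes were chosen by their values in co-culture against control, so a negative median there was favoured by the choice.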
